A study of Mus musculus with 2 samples.

Results

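Interferon-stimulated genes were described in single-cell RNA-seq libraries of perfused mouse hepatocytes, as a list of 37 genes taken by symbol, of which 36 were among the 31053 genes of the count table. The series holds 2 libraries from C57BL/6 livers. The control library (LaptTA;WT) carried the tTA transactivator, which the LAP promoter directs to hepatocytes, and no inducible transgene. The tetYAP 4W library (LaptTA;tetYAP) carried in addition a tetracycline-responsive transgene for a constitutively active, point-mutated YAP, switched on for 4 weeks by taking doxycycline out of the food of mice that were 4 weeks old. Both groups carry tTA, and both are a single library, so no difference between groups was tested and every interval is a 95% interval that covers counting error only. The comparison asks in which cell classes interferon-stimulated transcripts differed after YAP induction, and whether genes known for type I interferon differed from those known for interferon gamma.

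Interferons are cytokines of antiviral and antimicrobial defence. Type I interferons bind a receptor of Ifnar1 and Ifnar2 and activate a complex that holds Stat2 and Irf9 and binds the interferon-stimulated response element (ISRE) of its target promoters. Interferon gamma, made mainly by T and NK cells, binds Ifngr1 and Ifngr2 and acts through the gamma-activated sequence (GAS) of its target promoters. Both responses overlap, since several targets carry both elements. The list held 3 transcription factors (Irf7, Irf9, Stat2), 4 nucleic acid sensors (Ifih1, Ddx58, Dhx58, Zbp1), 8 type I genes by symbol (Ifit1, Ifit2, Ifit3, Ifit3b, Oas1a, Oasl2, Mx1, Mx2), 5 genes of the ISG15 system and of antiviral effectors (Isg15, Usp18, Rsad2, Bst2, Ifitm3), 7 other interferon-induced genes (Ifi27, Ifi27l2a, Ifi35, Ifi44, Xaf1, Parp14, Rtp4) and 10 interferon gamma genes. The latter are 6 guanylate-binding proteins (Gbp2, Gbp2b, Gbp3, Gbp5, Gbp6, Gbp7) and 4 immunity-related GTPases of the IRG family (Igtp, Irgm1, Irgm2, Iigp1), GTPases that act on the membranes of vacuoles holding microbes. Mx2 was not among the genes of the table and is not analysed here.

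Many of these genes share their promoter elements. RefSeq promoters on GRCm38.p6, from 250 bases before to 50 bases after the gene start, were matched for 26 of the 37 genes. The ISRE core GAAANNGAAA, read on both strands, was in 19 of the 26 (73.1%) and in 3.45% of all 32544 promoters. It was in 4 of 6 type I promoters, in 5 of 5 Gbp promoters and in 3 of 3 IRG promoters. The GAS motif TTCNNNGAA, whose matches can overlap those of the ISRE core, was in 9 of the 26 (34.6%) and in 8.33% of all promoters. For both motifs a gene of the list was counted once, if any of its promoters matched. Over all promoters each distinct sequence was counted once, so these percentages are not of the same unit. A stretch of 100 bases upstream of the start is shown for a type I gene, for Isg15, for a Gbp gene and for 2 IRG genes, because the Gbp and IRG genes carried the same element and differed in part of the data. Each is read 5′ to 3′ on the strand of its gene, capitals mark matches to the ISRE core on either strand (TTTCNNTTTC is its other strand), and in Igtp the first block of capitals is a match to the GAS motif. The stretches are chr19:34640740-34640839 on the + strand for Ifit1, chr4:156200842-156200941 on the - strand for Isg15, chr3:142620559-142620658 on the + strand for Gbp2, chr11:48871421-48871520 on the - strand for Irgm1 and chr11:58199456-58199555 on the + strand for Igtp.
Ifit1: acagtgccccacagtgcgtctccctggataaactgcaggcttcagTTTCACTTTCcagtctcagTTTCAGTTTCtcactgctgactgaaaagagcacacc
Isg15: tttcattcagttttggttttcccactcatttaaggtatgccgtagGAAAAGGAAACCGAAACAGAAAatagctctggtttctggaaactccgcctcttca
Gbp2: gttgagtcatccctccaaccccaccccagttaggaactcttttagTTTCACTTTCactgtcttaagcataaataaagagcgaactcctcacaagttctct
Irgm1: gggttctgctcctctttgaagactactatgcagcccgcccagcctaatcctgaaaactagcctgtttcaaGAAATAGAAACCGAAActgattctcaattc
Igtp: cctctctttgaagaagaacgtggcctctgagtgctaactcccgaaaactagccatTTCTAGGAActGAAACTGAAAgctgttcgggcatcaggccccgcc

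Unique molecular identifiers (UMIs), each standing for a captured transcript 3′ end, were counted per gene and barcode. The control library held 2989 barcodes and 9509885 UMIs, and the tetYAP 4W library 1524 barcodes and 6777210 UMIs. No barcode sequence was shared. Barcodes were put into classes by their UMIs of marker genes, as class "-like" barcodes. The hepatocyte-like class held 2846 control and 731 tetYAP 4W barcodes, the macrophage-like class 22 and 229, the endothelial cell-like class 58 and 136, and the T or NK cell-like class 14 and 127. In clusters made without interferon genes and named by marker UMIs, 6 hepatocyte clusters held control barcodes only and 4 held tetYAP 4W barcodes only. The libraries thus shared no hepatocyte cluster. How the barcodes of each class fell into the clusters was not counted. Clusters named endothelial were split too, with 54 control and 2 tetYAP 4W barcodes in 1 cluster and 5 and 124 in another. Both clusters named macrophage held both libraries. The hepatocyte-like classes also differed in the median mitochondrial share, 28.2% for control and 57.3% for tetYAP 4W barcodes. The animals differed in sex-linked RNA, with 3 control and 4859 tetYAP 4W UMIs of Xist and 716 and 0 UMIs of Y-linked genes, and this difference and YAP induction cannot be told apart.

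RNA of other cells was present in hepatocyte-like barcodes, and more so in the tetYAP 4W library. Macrophage markers summed to 0.0921 UMIs per control and 3.11 per tetYAP 4W hepatocyte-like barcode, against 84.3 in macrophage-like barcodes and 3.68 in erythroid-like barcodes, which do not express them. Endothelial markers summed to 0.375 and 1.15 UMIs per hepatocyte-like barcode, against 64.2 in endothelial cell-like barcodes and 0.703 in erythroid-like ones. Hepatocyte markers were high in every class, with a median of 257 UMIs in macrophage-like and 284 in erythroid-like tetYAP 4W barcodes against 361 in hepatocyte-like ones. The part of this shared RNA in the differences below was not tested.

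In hepatocyte-like barcodes, 33 of the 36 genes had at least 10 UMIs over both libraries and 20 of them had at least 2-fold higher CPM, the UMIs of a gene scaled to a common total, in the tetYAP 4W library (60.6% of those counted). Over all 10895 genes counted in this class, 16.6% were at least 2-fold higher and 15.7% at least 2-fold lower. None of the interferon-stimulated genes was at least 2-fold lower, and the intervals of 5 (Bst2, Ifitm3, Ifi27, Ifi35 and Iigp1) lay below 0. The median log2 ratio was 1.33 (median bounds 0.64 and 1.98), and that of all genes -0.17. Ifit2, Ifit3b, Oas1a, Oasl2, Ifi44, Gbp2, Gbp2b and Gbp3 had under 10 control UMIs in this class. They reached the minimum of 10 only with their tetYAP 4W UMIs, so the count of 20 and the median depend in part on it. With a minimum of 50 UMIs, 11 of 23 genes were at least 2-fold higher, beside 8.45% of all genes. Over all barcodes, where the larger share of non-parenchymal cells also enters, 27 of 36 genes were at least 2-fold higher and none lower, beside 38.3% and 7.89% of all genes, with a median of 2.28 (median bounds 1.58 and 2.88) beside 0.60 for all genes. More cells that express a gene and more RNA per cell cannot be told apart in the latter values.

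**Figure D1:**
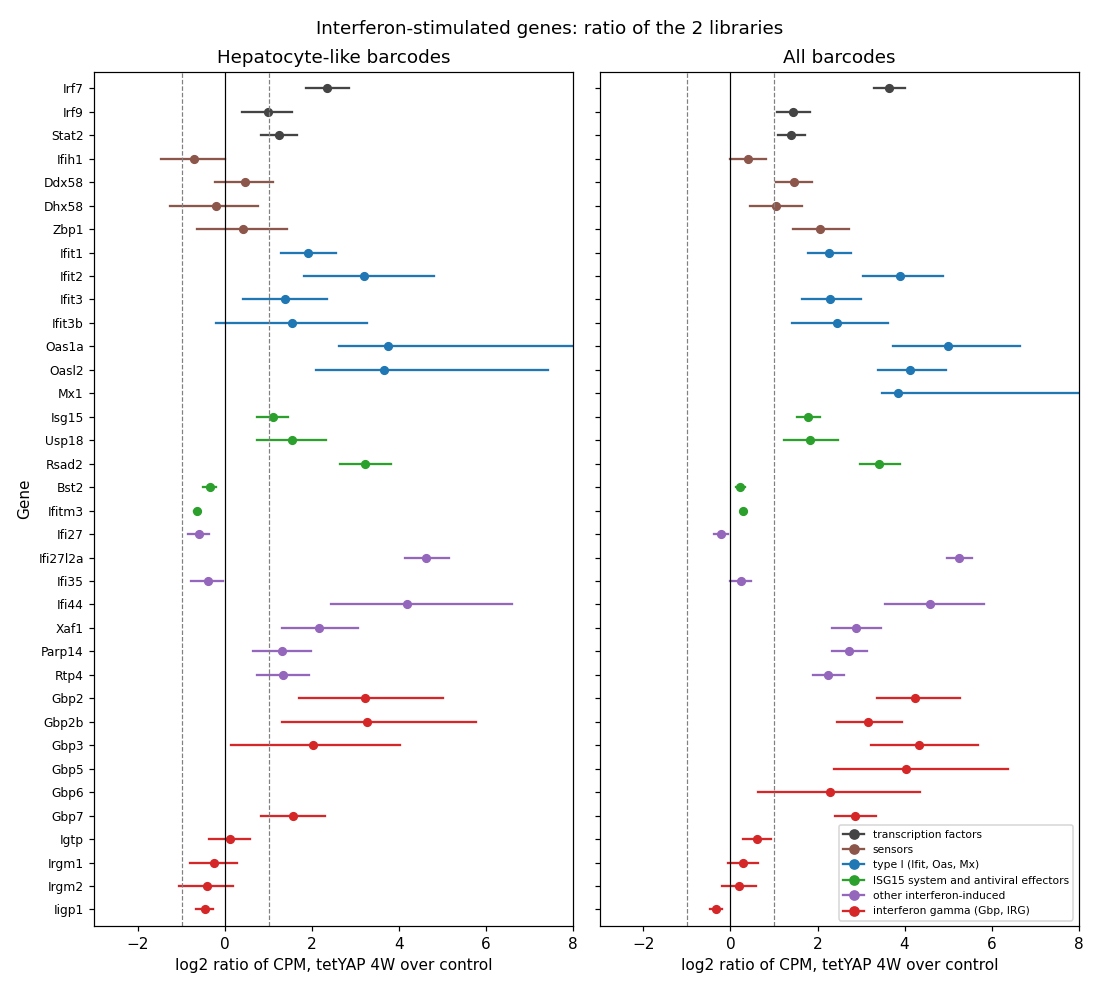
Log2 ratio of CPM, tetYAP 4W over control, for each gene (rows, coloured by role), in hepatocyte-like barcodes (left) and in all barcodes (right). Points are ratios, lines are 95% counting intervals (cut at 8), and dashed lines mark 2-fold; genes under 10 UMIs over both libraries have no point. The type I and Gbp genes lie above 0, and the IRG genes lie near 0, with medians of -0.34 and 0.24 that turn sign with other scalings or without barcodes above 30% mitochondrial UMIs.

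All 3 transcription factors had higher CPM in hepatocyte-like barcodes of the tetYAP 4W library, with intervals above 0. Irf7, the factor that amplifies the type I response, had 56 control and 99 tetYAP 4W UMIs in hepatocyte-like barcodes (6.29 and 32.1 CPM), and its log2 ratio was 2.35 (1.86 to 2.85). Stat2 had 114 and 93 UMIs and a ratio of 1.24 (0.82 to 1.64), and Irf9, its DNA-binding partner, 66 and 45 UMIs and 0.98 (0.40 to 1.54). The class with the most Irf7 was not the hepatocyte-like one. In the tetYAP 4W library macrophage-like barcodes held 1.64 UMIs of Irf7 each (1.48 to 1.81), hepatocyte-like barcodes 0.135 (0.110 to 0.165) and erythroid-like barcodes 0.270 (0.130 to 0.497). Irf7 was also higher in macrophage-like barcodes of the tetYAP 4W than of the control library, with 375 UMIs over 229 barcodes against 11 over 22, a log2 ratio of 1.67 (0.82 to 2.69). Irf9 was at 0.331 UMIs per endothelial cell-like barcode and 0.0616 per hepatocyte-like barcode. Stat2 was at 0.478 per stellate or mesenchymal cell-like barcode, from 11 UMIs in 23 barcodes, and 0.127 per hepatocyte-like barcode.

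The nucleic acid sensors were not apart between the libraries in hepatocyte-like barcodes. The intervals of all 4 spanned 0, and none was at least 2-fold higher. Ddx58, which encodes RIG-I, had 63 control and 30 tetYAP 4W UMIs and a log2 ratio of 0.46 (-0.22 to 1.11). Ifih1, which encodes MDA5, had 94 and 20 UMIs and -0.70 (-1.48 to 0.0039). Dhx58 had 40 and 12 UMIs, and Zbp1, a sensor of Z-form nucleic acids, 28 and 13. Over all barcodes 3 of the 4 were at least 2-fold higher, and Zbp1 was highest among them, at 2.06 (1.43 to 2.72). In the tetYAP 4W library Zbp1 was at 0.355 UMIs per neutrophil or monocyte-like barcode, 0.205 per T or NK cell-like barcode and 0.0178 per hepatocyte-like barcode.

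All 6 type I genes that reached 10 UMIs in hepatocyte-like barcodes were at least 2-fold higher in the tetYAP 4W library, and 5 of the 6 intervals lay above 0. The median log2 ratio of the 6 was 2.55 (median bounds 1.55 and 4.04). The minimum counts both libraries, and Ifit2, Oas1a and Oasl2 were under 10 in the control and reached it through their tetYAP 4W UMIs. Ifit3b, under 10 in each library, reached it only with both. The count of 6 and the median thus depend in part on this minimum. Ifit1, an RNA-binding inhibitor of viral translation, went from 40 UMIs in the control to 52, or from 0.0141 to 0.0711 per hepatocyte-like barcode, with a log2 ratio of 1.91 (1.28 to 2.54). Ifit2 had 6 and 19 UMIs and a ratio of 3.19 (1.81 to 4.81), and Ifit3 21 and 19 UMIs and 1.38 (0.41 to 2.35). Ifit3b had 7 UMIs in each library, and its interval spanned 0 (-0.21 to 3.27). Ifit3 and Ifit3b are close copies within the Ifit cluster of chromosome 19 (34550550 to 34650009 on GRCm38.p6), so the split of UMIs between them is uncertain. Oas1a, an oligoadenylate synthetase that activates RNase L, had 1 and 14 UMIs, a ratio of 3.75 (2.62 to 10.7) with the lower count set to a floor of 3. Oasl2 had 2 and 13 UMIs, a ratio of 3.64 (2.09 to 7.42) with the same floor. Mx1, a dynamin-like GTPase gene that RefSeq lists as a transcribed pseudogene in this mouse assembly, had 0 control and 31 tetYAP 4W UMIs over all barcodes, 14.5-fold higher against a floor of 3 UMIs per library, with a lower counting bound of 3.47 on the log2 scale. Only 2 of these 31 UMIs lay in hepatocyte-like barcodes and 12 in macrophage-like ones.

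In the tetYAP 4W library these genes were at higher levels outside the hepatocyte-like class. Oasl2 was at 0.529 UMIs per endothelial cell-like barcode (0.414 to 0.667), 0.279 per macrophage-like barcode and 0.0178 per hepatocyte-like barcode. Ifit2 was at 0.397 (0.298 to 0.518), 0.140 and 0.0260 in the same order, and was the type I gene whose highest class was apart from the second. Oas1a was at 0.191, 0.166 and 0.0192. Ifit1 was the most even, at 0.206 per endothelial cell-like, 0.213 per T or NK cell-like, 0.127 per macrophage-like and 0.0711 per hepatocyte-like barcode. Clusters named endothelial were split by library. In the endothelial cell-like class Ifit2 had 3 UMIs in 58 control and 54 in 136 tetYAP 4W barcodes, a log2 ratio of 2.66 (1.03 to 4.98). Oasl2 had 8 and 72 there, a ratio of 1.66 (0.60 to 2.92). The intervals of Ifit1, Ifit3, Ifit3b and Oas1a spanned 0 in that class.

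Among the ISG15 system and the antiviral effectors, 3 genes were at least 2-fold higher in hepatocyte-like barcodes and 2 abundant ones had ratios below 0. Rsad2, which encodes viperin, had 34 and 109 UMIs and a log2 ratio of 3.21 (2.64 to 3.81). Isg15, a ubiquitin-like modifier, had 153 and 113 UMIs and 1.09 (0.73 to 1.45), and Usp18, the protease that removes it, 29 in each library and 1.53 (0.73 to 2.32). Isg15 and Rsad2 were also found in erythroid-like barcodes, at 0.676 (0.437 to 0.997) and 0.432 (0.247 to 0.702) UMIs each, above the 0.155 (0.127 to 0.186) and 0.149 (0.122 to 0.180) of hepatocyte-like barcodes, so erythroid-like barcodes give no free RNA level for these genes. Bst2, or tetherin, had 1691 control and 459 tetYAP 4W UMIs there, with a log2 ratio of -0.35 (-0.50 to -0.20), which turned to 0.20 with a total that leaves out mitochondrial and the 50 most abundant genes and to 0.44 without barcodes above 30% mitochondrial UMIs. Ifitm3, which blocks viral fusion, had 7610 and 1689 UMIs and -0.64 (-0.72 to -0.57), which turned to 0.11 without barcodes above 30% mitochondrial UMIs. Per hepatocyte-like barcode the values were close, at 2.67 (control) and 2.31 (tetYAP 4W) for Ifitm3 and at 0.594 and 0.628 for Bst2. Ifitm3 alone made up 58.2% of the control and 39.6% of the tetYAP 4W UMIs of the list. It was highest in neutrophil or monocyte-like barcodes, at 17.5 UMIs each (16.0 to 19.0), and Bst2 in endothelial cell-like barcodes, at 2.71 (2.44 to 3.0).

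The other interferon-induced genes held the largest ratio of the list. Ifi27l2a, a gene of the ISG12 family, had 38 control and 322 tetYAP 4W UMIs in the hepatocyte-like class, and its log2 ratio was 4.61 (4.12 to 5.14), and its share of the list's UMIs went from 0.733% to 15.7% over all barcodes. In the tetYAP 4W library it was at 11.0 UMIs per neutrophil or monocyte-like barcode (9.83 to 12.2), 4.91 per macrophage-like barcode, 2.70 per T or NK cell-like barcode, 0.440 (0.394 to 0.491) per hepatocyte-like barcode and 0.351 (0.187 to 0.601) per erythroid-like barcode. The hepatocyte-like level was thus within the interval of the erythroid-like one. Ifi27, which lies inside the annotated span of Ifi27l2a on chromosome 12, had 818 and 186 UMIs and a ratio of -0.61 (-0.85 to -0.38), which turned to 0.099 without barcodes above 30% mitochondrial UMIs. How reads of these overlapping genes were counted was not examined. Ifi44 had 3 and 19 UMIs and a ratio of 4.19 (2.43 to 6.59), and Xaf1, an antagonist of the apoptosis inhibitor XIAP, 20 and 31 UMIs and 2.16 (1.30 to 3.05). Rtp4 had 55 and 48 UMIs and a ratio of 1.33, and Parp14, an ADP-ribosyltransferase, 43 and 37 UMIs and 1.31, both with intervals above 0. Ifi35 had 301 and 79 UMIs and a ratio of -0.40 (-0.78 to -0.039), which turned to 0.15 with the total without abundant genes and to 0.96 without barcodes above 30% mitochondrial UMIs. In the tetYAP 4W library Ifi44, Xaf1, Parp14 and Rtp4 were each highest per barcode in the endothelial cell-like class, at 0.375, 0.316, 0.529 and 0.684 UMIs.

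The Gbp genes and the IRG genes, both known for interferon gamma, differed in hepatocyte-like barcodes and over all barcodes. The 4 Gbp genes that reached 10 UMIs in hepatocyte-like barcodes were all at least 2-fold higher in the tetYAP 4W library, with a median log2 ratio of 2.61 (median bounds 1.07 and 4.51). Gbp7 had 33 and 34 UMIs and a ratio of 1.57 (0.84 to 2.31), Gbp2 5 and 16 UMIs and 3.21 (1.69 to 5.01), Gbp2b 3 and 10 UMIs and 3.27 (1.31 to 5.77), and Gbp3 5 and 7 UMIs and 2.01 (0.14 to 4.01). Gbp5, with 1 and 5 UMIs, and Gbp6, with 4 and 1, were under 10 in this class. Gbp2 and Gbp2b reached this minimum through their tetYAP 4W UMIs, and Gbp3, under 10 in each library, only with both. The count of 4 and the median thus depend in part on this minimum. Over all barcodes all 6 were at least 2-fold higher, with a median of 3.60. Of the 6, 5 lie side by side on chromosome 3 (142496934 to 142638008 on GRCm38.p6) and are similar in sequence, so the split of UMIs among them is uncertain.

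None of the 4 IRG genes was at least 2-fold higher or lower in hepatocyte-like barcodes, and their median log2 ratio was -0.34 (median bounds -0.73 and 0.23), which turned to 0.21 with the total without abundant genes and to 0.82 without barcodes above 30% mitochondrial UMIs. Relative to the median of all genes it was -0.16 and -0.15 with either total, and 0.057 without those barcodes. Iigp1 had 1100 and 276 UMIs and a ratio of -0.47 (-0.66 to -0.27), which turned to 0.083 with the total without abundant genes and to 0.62 without barcodes above 30% mitochondrial UMIs. Irgm1 had 134 and 39 UMIs, Irgm2 112 and 29 and Igtp 147 and 55, and the intervals of these 3 spanned 0. The IRG genes were the more abundant of both families in control hepatocyte-like barcodes, although not higher there than in other control classes. They summed to 0.525 UMIs per barcode (0.498 to 0.552), beside 0.864 in control macrophage-like and 0.897 in control endothelial cell-like barcodes, and, after YAP induction, to 0.546 (0.494 to 0.602). The Gbp genes summed to 0.0179 (0.0133 to 0.0236) and 0.0999 (0.0783 to 0.126), and the type I genes to 0.0271 (0.0214 to 0.0338) and 0.172 (0.144 to 0.205).

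**Figure D2:**
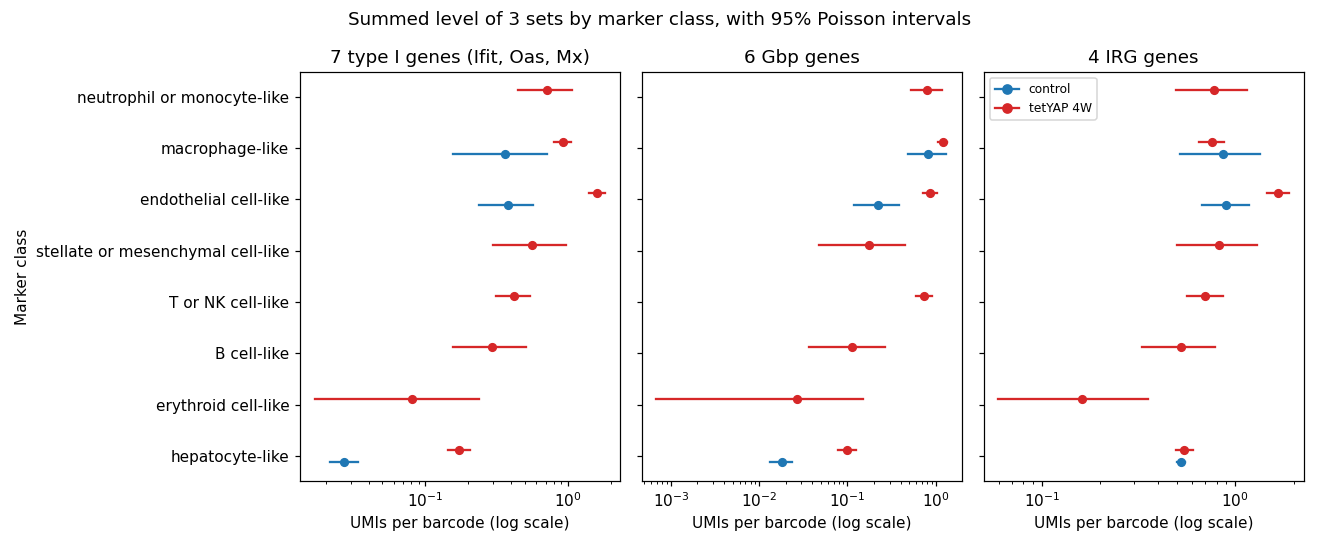
UMIs per barcode (log scale) summed over 7 type I genes, 6 Gbp genes and 4 IRG genes, by marker class, in the control (blue, for classes of at least 20 barcodes) and the tetYAP 4W library (red), with 95% Poisson intervals. In hepatocyte-like barcodes the type I and Gbp sums differ between libraries and the IRG sums, 0.525 and 0.546, overlap.

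The classes also differed in the balance of the sets. In the tetYAP 4W library the type I sum was highest in endothelial cell-like barcodes, at 1.61 UMIs each (1.40 to 1.84), among classes of at least 20 barcodes, then 0.926 (0.805 to 1.06) in macrophage-like and 0.710 in neutrophil or monocyte-like barcodes. The 6 dendritic cell-like barcodes held 3.17 each (1.91 to 4.95). The Gbp sum was highest in macrophage-like barcodes, at 1.2 (1.06 to 1.35). It was 0.868 (0.718 to 1.04) in endothelial cell-like, 0.806 in neutrophil or monocyte-like and 0.740 in T or NK cell-like barcodes, with overlapping intervals among these. In the neutrophil or monocyte-like class 2 of the 31 barcodes held 72% of the Gbp UMIs, so its place rests on few barcodes. With barcodes thinned to a common depth, its mean Gbp sum was 0.161 UMIs. The thinned means were 0.476 in macrophage-like, 0.375 in endothelial cell-like and 0.315 in T or NK cell-like barcodes. The Gbp share of type I and Gbp UMIs was 56.5% (51.9 to 60.9) in macrophage-like, 63.9% (55.6 to 71.7) in T or NK cell-like and 35.0% (29.9 to 40.4) in endothelial cell-like barcodes. It was 36.7% in hepatocyte-like barcodes. Gbp2b was nearly restricted to macrophage-like barcodes, which held 100 of its 121 UMIs, at 0.437 per barcode, with 14 UMIs in the 22 control macrophage-like barcodes. Gbp7 was spread over endothelial cell-like, T or NK cell-like and macrophage-like barcodes, at 0.449, 0.394 and 0.275 UMIs each. The IRG sum was 1.66 (1.45 to 1.89) in endothelial cell-like and 0.755 (0.647 to 0.877) in macrophage-like barcodes.

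The interferon gamma share of type I, Gbp and IRG UMIs in hepatocyte-like barcodes was 95.2% (94.1 to 96.2) for control and 78.9% (75.4 to 82.1) for tetYAP 4W barcodes. Iigp1 alone gave 1100 and 276 of these UMIs, and without Iigp1 and Igtp the share was 79.4% and 52.8%. In macrophage-like and endothelial cell-like tetYAP 4W barcodes it was 67.9% and 61.1%.

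The 37 erythroid-like barcodes held few type I, Gbp and IRG transcripts and were taken as the level of free RNA for these sums in the tetYAP 4W library. As said above, they give no such level for Isg15 and Rsad2. Their type I sum was 0.0811 UMIs per barcode (0.0167 to 0.237) and their Gbp sum 0.0270 (0.00068 to 0.151), and both intervals overlapped those of hepatocyte-like barcodes. At this depth the type I and Gbp level of hepatocyte-like barcodes could not be told from free RNA. The IRG sum of erythroid-like barcodes, 0.162 (0.0595 to 0.353), lay below that of hepatocyte-like barcodes, and Iigp1 was the single gene of the 36 whose own interval did so. Relative to macrophage-like barcodes, macrophage markers were at 3.68% in hepatocyte-like barcodes, and 35 of the 36 genes were above that percentage, Gbp2b being the exception at 3.13%. These markers set both classes, which keeps their percentage low, and most of the genes were also found in other classes. The percentage is therefore no level of free RNA for these genes, and nothing is concluded from this count.

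Counted by barcodes, 2.53% of control hepatocyte-like barcodes (1.98 to 3.18) and 14.8% of tetYAP 4W ones (12.3 to 17.6) held a type I UMI, at median depths of 3099.5 and 3980 UMIs. In erythroid-like tetYAP 4W barcodes, with a median depth of 3383, the share was 8.11% (1.70 to 21.9). Thinned to 2000 UMIs, with 88 shallower control barcodes left out, the hepatocyte-like shares were 1.78% (1.32 to 2.34) and 7.93% (6.08 to 10.1), and 0 of 37 erythroid-like barcodes held one, which allows up to 9.49%. The Gbp shares were 1.69% and 9.03% before and 0.943% and 4.65% after thinning, and 2.70% in erythroid-like barcodes before it. The IRG shares were 41.3% and 39.4% before and 27.7% and 22.6% after thinning, and 13.5% in erythroid-like barcodes before it. Of the tetYAP 4W hepatocyte-like barcodes 3 held 3 or more type I UMIs, and of the 136 endothelial cell-like barcodes 34 did. After thinning, the variance over the mean was 1.38 and 1.3 in these classes, at means of 0.0930 and 0.544 UMIs per barcode. Because this measure depends on the mean, it does not say in which class type I UMIs were more unevenly spread.

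**Figure D3:**
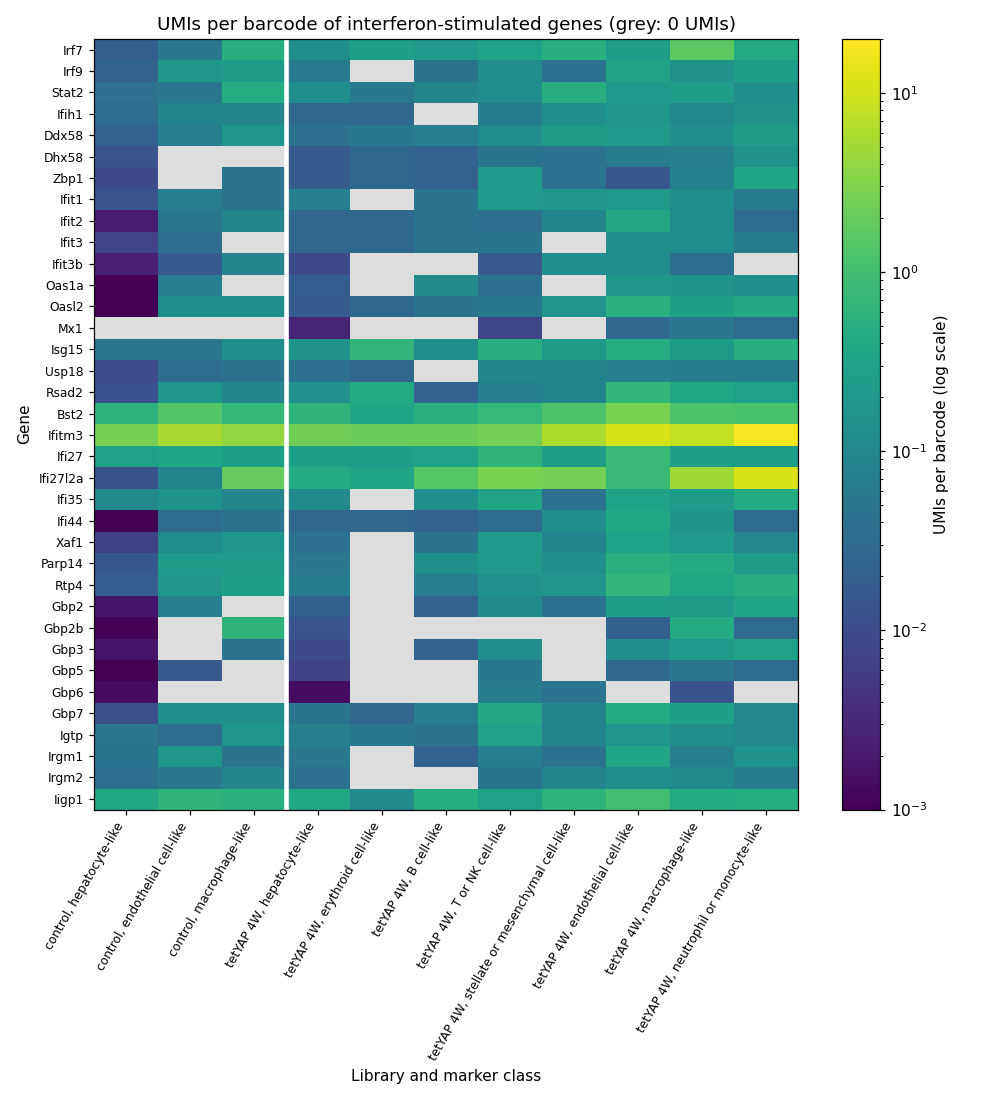
UMIs per barcode (colour, log scale; grey where 0) of each gene (rows) by library and marker class (columns), with the 3 control classes of at least 20 barcodes left of the white line and tetYAP 4W classes to the right. Ifitm3 and Ifi27l2a reach 17.5 and 11.0 in neutrophil or monocyte-like barcodes, against 2.67 and 0.0134 in control hepatocyte-like barcodes.

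Among tetYAP 4W classes of at least 20 barcodes, 17 of the 36 genes were highest per barcode in the endothelial cell-like class, 8 in the neutrophil or monocyte-like class, 5 in the T or NK cell-like class, 3 in the macrophage-like class (Irf7, Gbp2b and Mx1), 2 in the stellate or mesenchymal cell-like class (Stat2 and Ifit3b) and 1, Isg15, in the erythroid-like class, where 7 of the 37 barcodes held its 25 UMIs. None was highest in the hepatocyte-like class. UMIs per barcode rise with depth, and the median was 5894 UMIs in endothelial cell-like, 5940 in neutrophil or monocyte-like and 3980 in hepatocyte-like barcodes. Of the genes highest in the endothelial cell-like class, Ifit3, Oas1a, Parp14 and Irgm2 were highest by CPM in macrophage-like barcodes. Ifih1 was so in stellate or mesenchymal cell-like and Gbp7 in T or NK cell-like barcodes. This ranking was not made over all genes. Gbp2 and Gbp3 were among the 8 highest in the neutrophil or monocyte-like class. There Gbp2 had 11 UMIs in 4 and Gbp3 9 UMIs in 6 of the 31 barcodes. For 7 of the 36 (Irf7, Ifit2, Bst2, Ifitm3, Ifi27l2a, Ifi44 and Gbp2b) the interval of the highest class was apart from that of the second. Set against hepatocyte-like barcodes by CPM, 25 of the 35 genes counted were at least 2-fold higher in macrophage-like barcodes (47.7% of all genes), 25 of 33 in endothelial cell-like barcodes (59.5% of all genes) and 19 of 33 in T or NK cell-like barcodes (44.5% of all genes). The median mitochondrial share was 57.3% in hepatocyte-like barcodes and 28.7%, 22.1% and 23.2% in these classes, its part was not tested, and the median log2 ratio of all genes was 0.94, 1.31 and 0.83. Relative to these medians, that of the list was 1.09, 0.48 and 0.25.

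**Figure D4:**
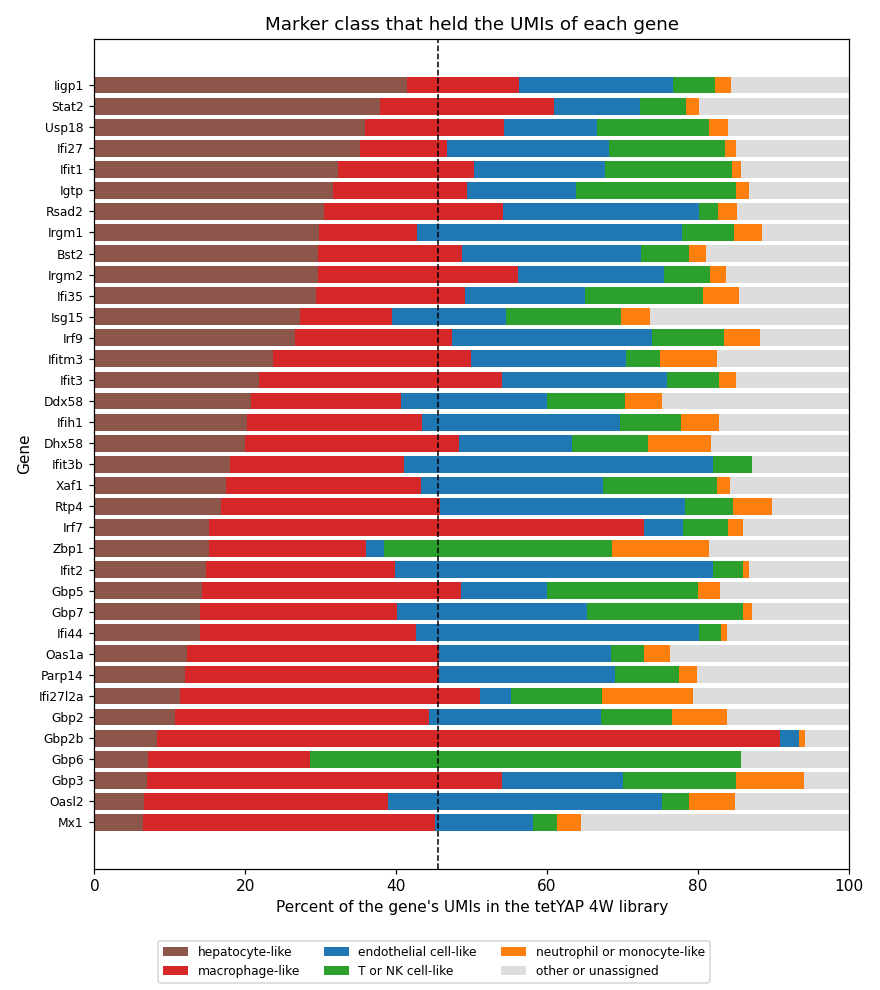
Percent of each gene's tetYAP 4W UMIs (bars, summing to 100) by marker class, ordered by the hepatocyte-like share. The dashed line marks the 45.5% of all UMIs of the library that lay in hepatocyte-like barcodes, and the hepatocyte-like part of each bar ends left of it, from 41.4% for Iigp1 to 6.45% for Mx1.

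Hepatocyte-like barcodes held 45.5% of all UMIs of the tetYAP 4W library and a median of 19.0% of the UMIs of a gene of the list. Both shares moved with the definition of the class, to 13.0% and 6.98% without barcodes above 30% mitochondrial UMIs and to 33.7% and 11.8% with the marker thresholds at 50% of their value. The share was 30.7% in the median of the IRG genes, 14.8% of the type I genes and 9.50% of the Gbp genes.

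The other classes were compared between libraries with few control barcodes. In endothelial cell-like barcodes (58 and 136, with clusters of that name split by library), 18 of 30 genes counted were at least 2-fold higher in the tetYAP 4W library. None was at least 2-fold lower, and the shares of all genes were 13.2% higher and 7.51% lower. The median log2 ratio of the list in this class was 1.17 (median bounds 0.091 and 3.22). Of the IRG genes 2 of 4 were at least 2-fold higher there, with a median of 0.85 (median bounds -0.28 and 2.60). Of the Gbp genes 2 of 3 counted were, with a median of 1.42 (median bounds 0.35 and 3.53). Isg15 had 3 and 63 UMIs there and a ratio of 2.88 (1.27 to 5.20), Rsad2 10 and 93 UMIs and 1.71 (0.76 to 2.81), and Gbp7 8 and 61 UMIs and 1.42 (0.35 to 2.69). In macrophage-like barcodes (22 and 229), 3 of 35 genes (Irf7, Rsad2 and Ifi27l2a) were at least 2-fold higher and 1, Ifit3b with 2 and 9 UMIs, was at least 2-fold lower, beside 2.92% and 13.9% of all genes. The median was 0.00 there, since most control counts were at or under the floor of 3. The IRG median was -0.19 and the Gbp median 0.55 in that class.

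Of 103 other genes of the interferon pathway, 101 were in the table. Among ligands, the type I interferon genes of the table had 0 UMIs in both libraries, which does not exclude a level too low to be counted. Interferon gamma (Ifng) had 1 control and 69 tetYAP 4W UMIs. Of these 69, 65 lay in T or NK cell-like barcodes, at 0.512 UMIs each (0.395 to 0.652), and 1 in a hepatocyte-like barcode. Of the receptors, 3 of 5 counted were at least 2-fold higher in hepatocyte-like barcodes, with log2 ratios of 1.12 for Ifnar1, 1.90 for Ifngr1 and 1.94 for Il10rb. Ifngr2 was at 0.69 (-0.030 to 1.39) and Ifnar2, with 207 and 43 UMIs, at -0.74 (-1.25 to -0.26). Ifnlr1, the specific chain of the interferon lambda receptor, had 0 and 5 UMIs over all barcodes. The counts of pathway genes in this class stand beside the 16.6% higher and 15.7% lower of all genes, and those of the next 3 groups are near these shares. Of the kinases and transcription factors 2 of 10 were at least 2-fold higher in hepatocyte-like barcodes, which were Irf1, with 44 and 32 UMIs and 1.07 (0.37 to 1.76), and Irf8, with 21 and 24 UMIs and 1.72 (0.81 to 2.64). Of the negative regulators 1 of 5, Socs3, was at least 2-fold higher, with 8 and 17 UMIs and 2.62 (1.33 to 4.04). Of other nucleic acid sensing genes 2 of 9, Samhd1 at 1.05 and Ifi204 at 3.39, were at least 2-fold higher, and Mavs, the adaptor of RIG-I and MDA5, was lower, with 212 and 34 UMIs and -1.11 (-1.68 to -0.58). Of the other interferon-stimulated genes 22 of 38 were at least 2-fold higher and 3 lower, these being Ifi47 at -1.0, Ube2l6, the E2 enzyme for Isg15, at -1.43 and Trim21 at -1.28. Irf8, Socs3, Samhd1, Ifi204, Mavs, Ifi47, Ube2l6 and Trim21 were named after their values were seen, and the ratios of pathway genes were not computed under other totals. The 3 with the most UMIs were Ifitm2 (2977 and 824 UMIs, -0.32), Ly6e (637 and 419 UMIs, 0.92) and Lgals9 (1212 and 232 UMIs, -0.86).

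The chemokines Cxcl9 and Cxcl10, which attract T cells through Cxcr3, were highest in endothelial cell-like barcodes. Cxcl10 was at 1.35 UMIs per barcode there (1.16 to 1.56), at 0.197 in macrophage-like and 0.0287 in hepatocyte-like tetYAP 4W barcodes. Cxcl9 was at 0.669, 0.279 and 0.0342 in the same order. In the hepatocyte-like class Cxcl10 had 11 UMIs from control and 21 from tetYAP 4W barcodes and a log2 ratio of 2.46 (1.34 to 3.66), and Cxcl9 43 and 25 UMIs and 0.75 (-0.026 to 1.49). Over all barcodes the ratios were 4.0 (3.42 to 4.64) and 2.36 (1.95 to 2.79).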

How the data were processed

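Perfused hepatocytes were profiled by droplet-based 3′ single-cell RNA-seq. The authors deposited raw UMI counts per gene and barcode, made with Cell Ranger at default parameters on mm10 and, per the methods of the study, down-sampled to 3000 cells per condition with barcodes above 7500 UMIs excluded. The table held 4513 barcodes (516 to 7493 UMIs each), and all were used. The genotype given per the labels set the group of each library.

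The 37 genes, the pathway lists and the classes were chosen with earlier results of these data known, so no test was made of the list. UMIs were summed per class and library and divided by the total to CPM. A ratio is log2 of tetYAP 4W over control CPM with an exact conditional binomial interval, a lower count under 3 set to 3 (never past the other library's level), for genes with at least 10 UMIs over both libraries. Levels carry exact Poisson and shares exact (Clopper-Pearson) intervals. A gene counted as higher or lower at 2-fold.

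Marker genes of 9 non-hepatocyte classes (12 hepatocyte markers beside them) were summed per barcode. A barcode joined the class whose sum reached its threshold (20 for macrophage, endothelial and erythroid, 10 for neutrophil or monocyte and stellate, 5 for the others) with at least 3 distinct markers, if it was the single one. It was called hepatocyte-like where each sum was under 50% of its threshold, and the rest (38 control and 160 tetYAP 4W barcodes) stayed unassigned. Thresholds were set after the sums were seen, and 39 tetYAP 4W hepatocyte-like and 59 macrophage-like barcodes lay within 20% of one. Doublets were not called. One gene that the naming rule covers is not reported here. Levels were named for up to 6 genes with the most UMIs in each role and for those highest in an unusual class; pathway genes named were receptors, Irf1, Ifng, Cxcl9, Cxcl10 and the 3 most abundant others.

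On Poisson counts simulated from the real means (31053 genes run), 200 genes with at least 50 UMIs were changed. Of these, 93% lay within their interval in hepatocyte-like and 94% in all barcodes. Genes with fewer UMIs, or with more spread than Poisson counts, were not examined in this way. Alternatives were edgeR 4.0.16 TMM factors, other totals, minimum counts and an offset, thinning, a limit on mitochondrial UMIs, other marker thresholds, Leiden clusters (scanpy 1.11.5, resolution 0.8, without interferon genes) and other sets. Coordinates and promoters came from RefSeq annotation of GRCm38.p6, which mm10 corresponds to. Python 3.11.15 and R 4.3.3 were used.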

Additional observations from a re-analysis of the deposited data

Results flagged for a closer look

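Of the genes whose intervals excluded 0 on opposite sides in 2 classes, 3 abundant ones had ratios of tetYAP 4W over control CPM below 0 in hepatocyte-like barcodes and above 0 in another class, and the difference between classes was not tested. Bst2 had a log2 ratio of -0.35 in hepatocyte-like, 0.65 in endothelial cell-like and 0.78 in macrophage-like barcodes. Ifitm3 had -0.64, 0.72 and 0.96 in the same order. Ifi27 had -0.61 in hepatocyte-like and 0.99 in endothelial cell-like barcodes. The median mitochondrial share was 28.2% (control) and 57.3% (tetYAP 4W) in hepatocyte-like barcodes. It was 22.4% and 22.1% in endothelial cell-like and 26.1% and 28.7% in macrophage-like barcodes, and its part was not tested. Without barcodes above 30% mitochondrial UMIs the 3 hepatocyte-like ratios were 0.44, 0.11 and 0.099.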

How the results depend on the processing

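Of 763 values under alternatives, 11 values of single genes whose interval excluded 0 turned sign, and the IRG median turned as given below. In all, 106 of 123 values over the list or a set and 561 of 640 values of single genes stayed within their interval or within 1.5 times the count. Leaving out barcodes above 30% mitochondrial UMIs kept 98 tetYAP 4W and 1746 control hepatocyte-like barcodes. In these the median log2 ratio was 2.05 for all genes of the list and 0.82 for the IRG genes, and Bst2 was at 0.44, Ifitm3 at 0.11, Ifi27 at 0.099, Ifi35 at 0.96 and Iigp1 at 0.62. Over all barcodes under that limit the IRG median was 0.84 and Ifi27 at 0.087, and the hepatocyte-like share of a gene's UMIs was 6.98%. It was 11.8% with the marker thresholds at 50% of their value, where fewer barcodes are hepatocyte-like. With TMM factors over all barcodes the IRG median was -0.32, Bst2 -0.33 and Ifitm3 -0.28. With a total that leaves out mitochondrial and the 50 most abundant genes, Bst2 was at 0.20, Ifi35 at 0.15, Iigp1 at 0.083 and the IRG median at 0.21 in hepatocyte-like barcodes. These scalings moved the median of all genes, which was -0.17 in hepatocyte-like barcodes, to 0.36 (abundant genes left out) and 0.76 (mitochondrial limit), and relative to it the list stood at 1.5, 1.52 and 1.29 and the IRG genes at -0.16, -0.15 and 0.057. With a minimum of 50 UMIs, which counts fewer genes, 11 of 23 were at least 2-fold higher in hepatocyte-like barcodes, beside 8.45% of all genes. The interferon gamma share in tetYAP 4W hepatocyte-like, control hepatocyte-like, macrophage-like and endothelial cell-like barcodes was 52.8%, 79.4%, 60% and 45.5% without Igtp and Iigp1, and 47.4%, 79.3%, 35.3% and 40.2% with Isg15, Rsad2, Usp18, Irf7 and Rtp4 added to the type I genes. Without Oasl2 and Iigp1, the most abundant of each set over all barcodes, it was 63.4% and 85.5% in the first 2. No paired analysis was possible because each group has 1 library, and no library could be left out. Counts under 10 UMIs limit most type I and Gbp genes in control hepatocyte-like barcodes.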
